A study of Mus musculus with 6 samples.

Results

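The 37 genes described here encode the ESCRT machinery, its ATPase and partners, 3 vesicle tetraspanins, 4 Rab GTPases and a sphingomyelinase. They were taken by name from a fixed list, and all 37 were found among the 55487 genes of the files. The RNA came from chondrocytes of C57B/6 mouse knee cartilage, in 2 groups of 3 libraries. The M-LPS-EV cells had received extracellular vesicles of macrophages that had been exposed to LPS, the endotoxin of Gram-negative bacteria. The M-EV cells had received vesicles of macrophages without that stimulus. Both groups got 10 µg/ml of vesicle protein for 24 h, so each comparison is between cells given one or the other kind of vesicle. Whether the groups also differed in other ways, such as culture, was not tested. Cells given no vesicles were not analysed here. The study concerns non-canonical pyroptosis, a lytic cell death, in chondrocytes that meet vesicles of inflammatory macrophages.

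The ESCRT complexes act in order on membranes that bud away from the cytosol. ESCRT-0 gathers ubiquitinated cargo, ESCRT-I and ESCRT-II deform the membrane, and ESCRT-III filaments narrow the neck until VPS4 takes them apart. The same ESCRT-III filaments pinch off pieces of plasma membrane that hold gasdermin pores, which lets cells survive a limited number of pores. Vesicles formed inside endosomes leave the cell as exosomes. Syntenin, ALIX, tetraspanins, Rab GTPases and the ceramide made by neutral sphingomyelinase 2 are known to act in their formation or release.

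Most of these genes stood at nearly the same level in both groups. All 37 had enough counts for the test, 6 fell and 1 rose with M-LPS-EV, and 30 were not called (edgeR quasi-likelihood test, Benjamini-Hochberg adjusted p under 0.05 over all tested genes, two-sided). The 7 called genes are 18.9% of the members, against 31.6% called among all 14604 tested genes. By direction, 2.7% of the members were called higher and 16.2% lower, against 16.4% and 15.2% of all tested genes. The median log2 fold change of M-LPS-EV over M-EV was -0.034 over the members and 0.003 over all tested genes. The median size of the change, whatever its sign, was 0.053 for the members and 0.129 for all tested genes. Counts scaled to a common library size (CPM) did not overlap between the groups for 10 members (27.0%), against 42.2% of all tested genes. The median level was 54.3 CPM for the members and 18.2 CPM for all tested genes, so these comparisons were not matched for abundance.

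The genes that fell were Smpd3, Cd9, Chmp2b, Tsg101, Stam and Chmp7, and the gene that rose was Cd81. Their log2 fold changes lay between -0.49 and 0.16. When the test asked for more than a 1.2-fold change, which is 0.26 on the log2 scale, Smpd3 alone passed. Of the 30 genes not called, 27 had a 95% interval that stayed inside 1.2-fold in both directions. The exceptions were Chmp4c, Rab27a and Rab27b, the least abundant members, whose intervals reached down to -0.52, -0.52 and -0.46. The Chmp7 call ended under 14 of the 18 alternatives tried. Whether the replicates came from different mice or cultures is not in the labels. The p-values therefore reflect the spread of these 6 libraries, which may be technical.

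**Figure D1:**
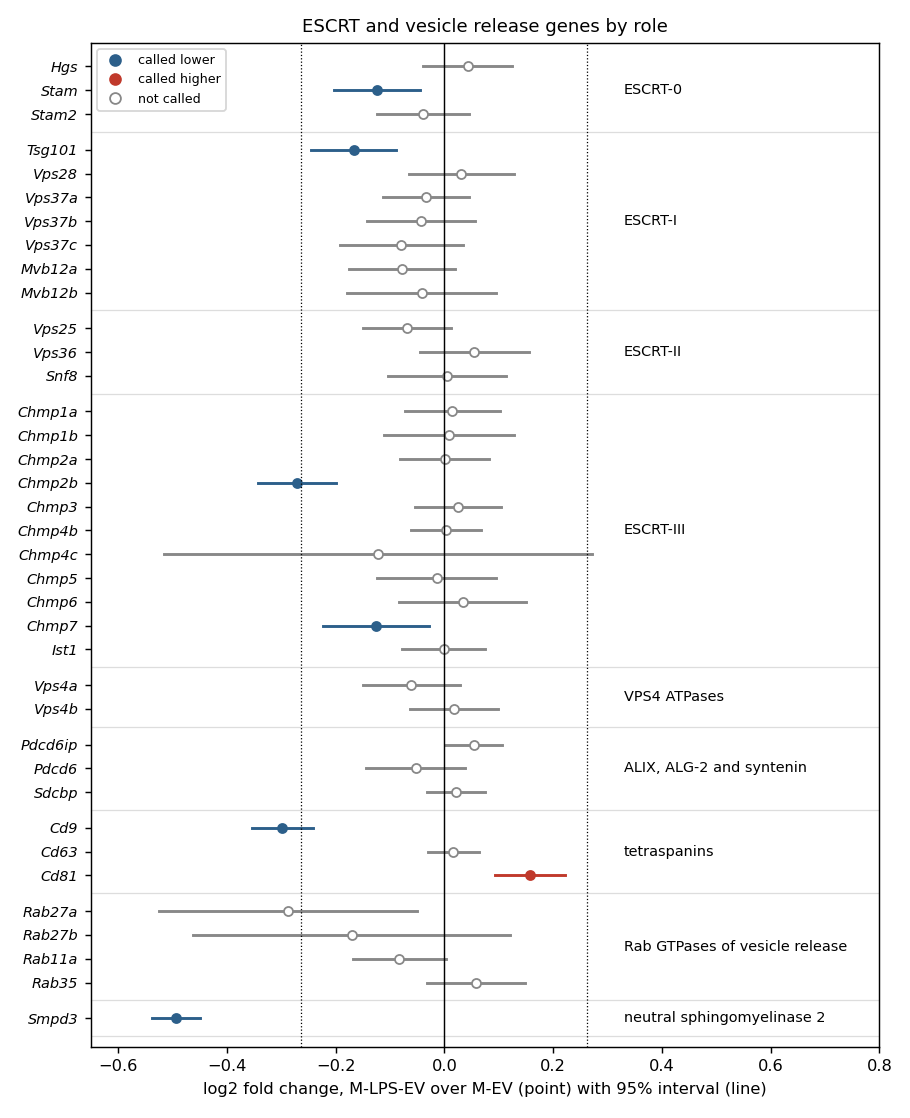
Log2 fold change of M-LPS-EV over M-EV for the 37 genes, grouped by role, as points with 95% intervals; dotted lines mark 1.2-fold. Most intervals cross 0 and stay between the dotted lines, Smpd3 lies farthest from 0 at -0.49, and Cd81 is the gene called higher.

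The libraries held 20239626 to 23539911 expected counts with M-LPS-EV and 22274687 to 25712667 with M-EV. In both groups chondrocyte markers were abundant: TPM values, which are scaled for transcript length and depth, of 13 markers summed to 49926 to 51151 with M-LPS-EV and 61154 to 61668 with M-EV, and 12 of the 13 fell. Of 12 macrophage markers 8 were tested and 4 rose, with summed TPM of 46.8 to 51.8 with M-LPS-EV and 36.4 to 38.3 with M-EV. Lyz2 made up most of that sum, and the other markers were low. Cd68 averaged 4.51 TPM with M-LPS-EV and 4.24 TPM with M-EV, and Cd14 2.81 TPM with M-LPS-EV and 1.34 TPM with M-EV. With M-LPS-EV, Tyrobp, Fcer1g and Itgam averaged 2.62, 1.52 and 0.583 TPM, against 2.60, 1.41 and 0.357 TPM with M-EV. Mrc1 and Aif1 averaged 0.463 and 0.0433 TPM with M-LPS-EV, against 0.503 and 0.0933 TPM with M-EV. Adgre1 averaged 1.55 TPM with M-LPS-EV and 0.623 TPM with M-EV, Csf1r averaged 0.917 TPM with M-LPS-EV and 1.47 TPM with M-EV, and Ptprc averaged 0.143 TPM with M-LPS-EV and 0.170 TPM with M-EV. Of 8 fibroblast markers 2 rose (Dcn and Lum) and 3 fell (Col1a1, Col1a2 and Thy1), with sums of 1425 to 1439.6 TPM with M-LPS-EV and 1267 to 1273 TPM with M-EV. Dcn, at 712 TPM with M-LPS-EV and 520.1 TPM with M-EV, held the largest part of that sum, while Col1a2 had 175 TPM with M-LPS-EV and 223 TPM with M-EV. Of 5 tested osteoblast markers 2 rose and 2 fell, with sums of 68.0 to 76.8 TPM with M-LPS-EV and 73.7 to 82.6 TPM with M-EV. The 1 tested adipocyte marker rose, and adipocyte markers summed to 5.46 to 7.58 TPM with M-LPS-EV and 3.05 to 4.38 TPM with M-EV. The 1 tested endothelial marker was not called, and endothelial markers summed to 1.25 to 1.34 TPM with M-LPS-EV and 1.01 to 1.26 TPM with M-EV. Cx3cr1 of the macrophage list and Lep of the adipocyte list had under 3 counts. Markers of several cell types thus differed between the groups beside the genes below; their part in those results was not tested. In such bulk RNA fewer cells of a type and less RNA per cell cannot be told apart.

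The tetraspanins and Smpd3 were among the most abundant members, and 3 of the 7 called genes belonged to these groups. Levels between genes are compared in TPM, which accounts for length. Cd63 was highest, with 541, 534 and 558 TPM with M-LPS-EV, against 542, 544 and 542 TPM with M-EV. Cd9 followed at 287 ± 8.21 TPM with M-LPS-EV and 355 ± 8.68 TPM with M-EV (mean ± SD, n = 3 each). Sdcbp stood at 167 ± 3.32 TPM with M-LPS-EV and 164 ± 3.44 TPM with M-EV, and Cd81 at 169 ± 3.87 TPM with M-LPS-EV and 152 ± 2.34 TPM with M-EV. Smpd3 averaged 125 ± 2.29 TPM with M-LPS-EV, below Cd81, Sdcbp, Chmp4b, Rab11a and Chmp2a, and 176 ± 2.84 TPM with M-EV, above all of these. The low end held 3 genes. Rab27a had 3.79 ± 0.493 TPM with M-LPS-EV and 4.50 ± 0.419 TPM with M-EV. Rab27b had 2.76 ± 0.450 TPM with M-LPS-EV and 3.09 ± 0.565 TPM with M-EV, and Chmp4c had 0.740 ± 0.148 TPM with M-LPS-EV and 0.843 ± 0.126 TPM with M-EV. The ranges of Rab27a and Rab27b did not overlap within either group, and those of Chmp4b, Chmp2a and Rab11a did in both.

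**Figure D2:**
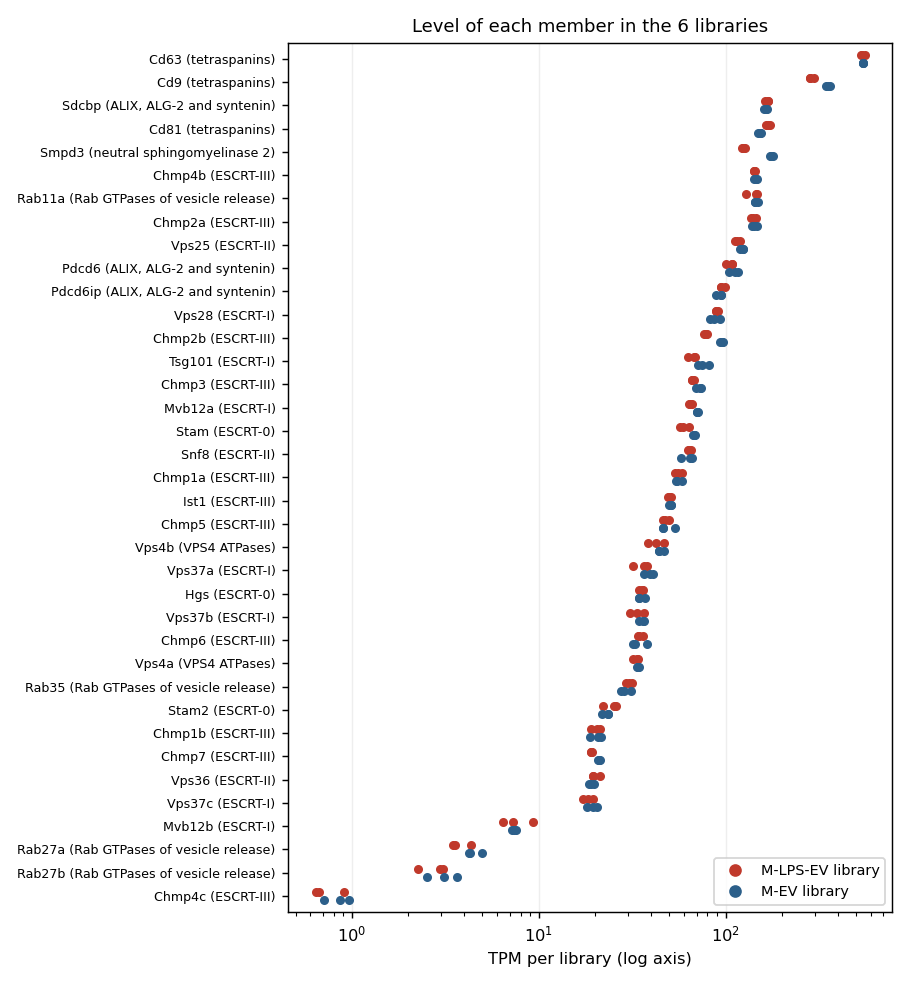
TPM of each gene in the 6 libraries on a log axis, ordered by the mean over all libraries, with M-LPS-EV libraries above M-EV libraries in each row. Cd63 is highest at about 544 TPM and Chmp4c lowest at under 1 TPM; the groups separate clearly for Cd9 and Smpd3.

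Smpd3 encodes neutral sphingomyelinase 2, which cuts sphingomyelin to ceramide on the inner face of membranes. Mice without it are known to have defects of cartilage and bone growth. The gene lies on chromosome 8 from 106252548 to 106337988 (mm10, ENSMUSG00000031906). It had 341, 327 and 334 CPM in the M-LPS-EV libraries, against 473, 468 and 468 CPM in the M-EV libraries. Each M-LPS-EV library was below each M-EV library by more than the spread within either group. The log2 fold change was -0.49 (standard error 0.02, edgeR adjusted p = 7.4e-16), so the level fell by 29.0%. The summed counts were 21802 with M-LPS-EV and 32948 with M-EV. This call held under all 18 alternatives. The summed chondrocyte markers above were lower in the same libraries. Prmt7 and Gm10629, on the opposite strand, overlap the gene and averaged 867 counts (Prmt7) and 48.8 counts (Gm10629) per library. Gm26786, a long noncoding RNA on the same strand, spans the gene from 106237903 to 106425728. Gm26786 is not among the genes that were counted, so its level is unknown here. Its part in the Smpd3 value was not tested. Whether counting used strand is not given in the sources used here.

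The tetraspanins Cd9, Cd63 and Cd81 are membrane proteins with 4 spans that are widely used as vesicle markers, of which Cd9 fell, Cd81 rose and Cd63 was not called. Cd9, on chromosome 6 from 125460266 to 125494791, had 166, 167 and 175 CPM with M-LPS-EV, against 213, 204 and 208 CPM with M-EV. The groups did not overlap, and the log2 fold change was -0.30 (standard error 0.03, edgeR adjusted p = 2.5e-09). Cd81, on chromosome 7 from 143052739 to 143067934, had 127, 132 and 124 CPM with M-LPS-EV, against 116, 113 and 115 CPM with M-EV. It was higher in 3 of 3 libraries, by 0.16 on the log2 scale (standard error 0.03, edgeR adjusted p = 0.00033). Cd63, the tetraspanin of late endosomes, had 269, 267 and 276 CPM with M-LPS-EV, against 266, 269 and 267 CPM with M-EV. Its groups overlapped, and the interval of its log2 fold change, -0.03 to 0.06, excludes a change of the size of Cd9 or Cd81.

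Since these genes share each library, their ratio does not depend on library scaling. The TPM ratio of Cd9 to Cd81 was 1.68, 1.63 and 1.79 in the M-LPS-EV libraries, against 2.36, 2.32 and 2.33 in the M-EV libraries. On the log2 scale of counts this ratio differed by -0.45, M-LPS-EV minus M-EV (exact permutation test, two-sided, p = 0.10, the smallest that 3 against 3 libraries can give). The ratio of Cd9 to Cd63 differed by -0.31 and that of Cd81 to Cd63 by 0.14, each with the same smallest p. These were 3 of 5 ratios that were compared, all chosen after the values of their genes were known.

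**Figure D3:**
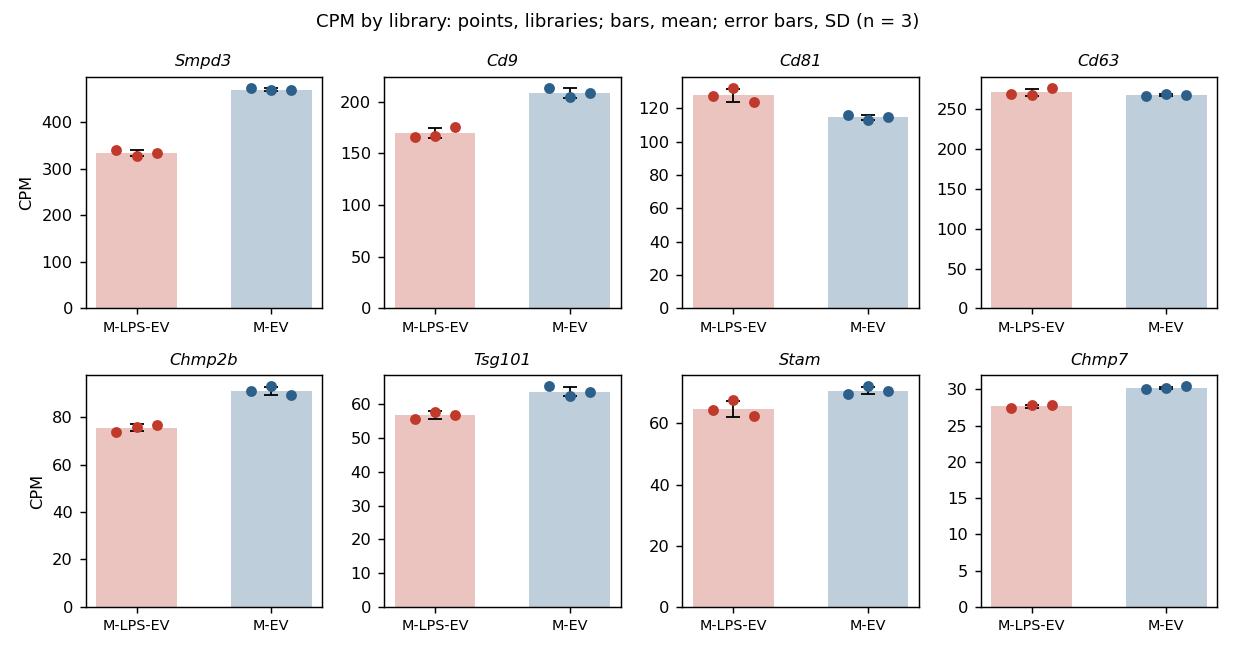
CPM in each library (points) with the group mean (bars) and SD (error bars, n = 3) for the 7 called genes and Cd63. Smpd3, Cd9, Chmp2b, Tsg101, Stam and Chmp7 are lower and Cd81 is higher with M-LPS-EV, while the Cd63 points of the groups overlap.

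Of the 26 genes of ESCRT-0 to ESCRT-III and the VPS4 ATPases, 4 fell (15.4%), 0 rose and 22 were not called, against 15.2% lower and 16.4% higher among all tested genes. The lower share was thus near that of all genes. The count of higher genes was also 0 at an unadjusted p under 0.05 and with DESeq2, which called 3 lower. Their median log2 fold change was -0.024. Summed over the 26 genes, the level was 1380, 1374 and 1357 TPM with M-LPS-EV, against 1441, 1439 and 1418 TPM with M-EV. These sums did not overlap; their means were 1370.4 ± 12.1 TPM with M-LPS-EV and 1433 ± 12.7 TPM with M-EV (SD, n = 3 each). The 4 lower genes came to 2 without M-LPS-EV replicate 3, without M-EV replicate 2, with effective length offsets or with protein-coding transcripts only.

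ESCRT-0 binds ubiquitin on endosomes. Of its 3 genes, Stam fell, and Hgs and Stam2 were not called. Stam, an adaptor that pairs with HRS (Hgs), lies on chromosome 2 from 14074098 to 14149634. Stam had 64.4, 67.7 and 62.5 CPM with M-LPS-EV, against 69.7, 72.1 and 70.5 CPM with M-EV. The groups did not overlap, with a log2 fold change of -0.12 (standard error 0.04, edgeR adjusted p = 0.014). The call ended without M-LPS-EV replicate 3 (-0.097, edgeR adjusted p = 0.090) and without M-EV replicate 2 (-0.11, adjusted p = 0.061). It also ended with only protein-coding transcripts summed (-0.064, adjusted p = 0.54). The TPM ratio of Stam to its paralog Stam2 was 2.50, 2.23 and 2.71 with M-LPS-EV, against 2.92, 3.10 and 2.84 with M-EV, and the count ratio differed by -0.09 on the log2 scale (exact permutation test, two-sided, p = 0.30). Hgs stood at 55.0 ± 1.17 CPM with M-LPS-EV and 53.5 ± 1.83 CPM with M-EV, and Stam2 at 45.2 ± 1.04 CPM with M-LPS-EV and 46.4 ± 1.34 CPM with M-EV.

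ESCRT-I bridges the cargo complex to the budding machinery. Of its 7 genes Tsg101 fell and the other 6 were not called, with log2 fold changes from -0.08 to 0.03 and intervals within -0.19 to 0.13. Tsg101, the central subunit, which also binds motifs in viral and cellular proteins, lies on chromosome 7 from 46888949 to 46919969. It had 55.7, 57.8 and 57.0 CPM with M-LPS-EV, against 65.3, 62.4 and 63.7 CPM with M-EV. All M-LPS-EV values were below all M-EV values, and the log2 fold change was -0.17 (standard error 0.04, edgeR adjusted p = 0.0011). The direction was the same in TPM but the call ended there (-0.19, limma adjusted p = 0.059) and with effective length offsets (-0.18, edgeR adjusted p = 0.060).

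Among the uncalled subunits Vps28 was the most abundant, with 89.7 ± 1.68 TPM with M-LPS-EV and 87.5 ± 5.58 TPM with M-EV. Vps37a, Vps37b and Vps37c encode interchangeable subunits. Vps37a had 35.6 ± 3.20 TPM with M-LPS-EV and 39.0 ± 2.07 TPM with M-EV, and Vps37b had 33.6 ± 2.79 TPM with M-LPS-EV and 35.7 ± 1.04 TPM with M-EV. Vps37c was lower, with 18.4 ± 1.19 TPM with M-LPS-EV and 19.3 ± 1.17 TPM with M-EV. Mvb12a, a regulatory subunit, had 29.1, 31.3 and 30.5 CPM with M-LPS-EV, against 31.7, 32.4 and 32.0 CPM with M-EV. These did not overlap, and the gene was called in TPM (-0.13, limma adjusted p = 0.028) but not in counts (-0.08, edgeR adjusted p = 0.23). With only protein-coding transcripts summed, Mvb12a had -0.0076 (edgeR adjusted p = 0.94). Its paralog Mvb12b was rarer, at 7.67 ± 1.48 TPM with M-LPS-EV and 7.37 ± 0.175 TPM with M-EV.

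None of the 3 genes of ESCRT-II, which links ESCRT-I to ESCRT-III on endosomes, was called. Vps25 had 57.8 ± 1.55 CPM with M-LPS-EV and 60.7 ± 1.86 CPM with M-EV. Vps36 had 41.2, 35.7 and 38.0 CPM with M-LPS-EV, against 37.3, 36.3 and 36.8 CPM with M-EV. Snf8 had 29.4 ± 0.642 CPM with M-LPS-EV and 29.2 ± 1.87 CPM with M-EV. Their intervals lay within -0.15 to 0.16 on the log2 scale. In TPM Vps25 was the most abundant of them, with 119.5, 115 and 113 TPM with M-LPS-EV, against 119, 124 and 124 TPM with M-EV, which overlapped.

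Of the 11 genes of ESCRT-III, Chmp2b and Chmp7 fell and 9 were not called. Chmp2b, a filament subunit that recruits VPS4 and whose human counterpart is mutated in a frontotemporal dementia, lies on chromosome 16 from 65539128 to 65562726. It had 73.8, 75.9 and 76.6 CPM with M-LPS-EV, against 90.9, 92.9 and 89.4 CPM with M-EV. The gap between the groups was several times the spread within them, with a log2 fold change of -0.27 (standard error 0.03, edgeR adjusted p = 8.1e-07), so the level fell by 17.2%. Its paralog Chmp2a was not called, with 59.6, 62.5 and 58.0 CPM with M-LPS-EV, against 58.5, 61.9 and 60.1 CPM with M-EV. The TPM ratio of Chmp2b to Chmp2a was 0.543, 0.538 and 0.581 with M-LPS-EV, against 0.688, 0.662 and 0.658 with M-EV. On the log2 scale of counts it differed by -0.27 (exact permutation test, two-sided, p = 0.10, the smallest possible). Per length Chmp2a was the more abundant of the pair in every library.

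Chmp7, which recruits ESCRT-III to the reforming nuclear envelope, lies on chromosome 14 from 69717000 to 69732541. It had 27.4, 27.8 and 27.8 CPM with M-LPS-EV, against 30.1, 30.2 and 30.4 CPM with M-EV. The libraries separated by group, but the log2 fold change of -0.13 (standard error 0.05) only just passed (edgeR adjusted p = 0.045). Leaving out any 1 library ended the call, with adjusted p from 0.074 to 0.12 and values from -0.13 to -0.12. DESeq2 (adjusted p = 0.19), limma-voom (0.056) and limma on TPM (0.11) did not call it.

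The other ESCRT-III filament genes were not called. Chmp4b, the main polymer of the filament, was the most abundant ESCRT-III gene, with 111, 116 and 112 CPM with M-LPS-EV, against 114, 114 and 111 CPM with M-EV. The groups overlapped, and the interval of -0.06 to 0.07 limits any difference. Its paralog Chmp4c, which acts in the abscission checkpoint of dividing cells, had 149 counts in the 3 M-LPS-EV libraries and 173 in the 3 M-EV libraries. Snx16, which overlaps it on the opposite strand, averaged 181 counts per library. Chmp3, which caps and remodels the filament, had 68.0 ± 2.22 CPM with M-LPS-EV and 66.8 ± 2.07 CPM with M-EV. Chmp1a, Chmp1b, Chmp5, Chmp6 and Ist1, which nucleate or regulate filaments and their disassembly, averaged between 25.1 CPM (Chmp6) and 68.5 CPM (Ist1) with M-LPS-EV and between 24.6 and 68.7 CPM with M-EV. Their log2 fold changes lay between -0.01 (Chmp5) and 0.03 (Chmp6).

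The ATPases that recycle ESCRT-III were not called either. Vps4a had 36.7, 35.5 and 37.3 CPM with M-LPS-EV, against 38.8, 38.1 and 37.1 CPM with M-EV. Vps4b had 61.6, 64.8 and 60.5 CPM with M-LPS-EV, against 59.8, 62.5 and 62.7 CPM with M-EV. The groups overlapped for both, with intervals within -0.15 to 0.10 on the log2 scale.

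ALIX, ALG-2 and syntenin make an entry to ESCRT-III that bypasses ESCRT-0. ALG-2 (Pdcd6) senses calcium at wounded membranes and recruits ALIX (Pdcd6ip), and syntenin (Sdcbp) couples ALIX to syndecans. Pdcd6ip had 191, 195 and 189.6 CPM with M-LPS-EV, against 187, 182 and 184 CPM with M-EV. The groups did not overlap, but the log2 fold change of 0.05 (standard error 0.03) did not pass (edgeR adjusted p = 0.11). Pdcd6 had 58.9, 59.8 and 55.4 CPM with M-LPS-EV, against 63.7, 56.5 and 60.3 CPM with M-EV, and Sdcbp had 169.8, 176 and 173 CPM with M-LPS-EV, against 169, 172 and 171 CPM with M-EV. Both overlapped between the groups, with intervals of -0.14 to 0.04 for Pdcd6 and -0.03 to 0.07 for Sdcbp.

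Among the Rab GTPases none was called at the threshold. Rab27a and Rab27b dock multivesicular bodies at the plasma membrane. Rab27a had 5.54, 6.34 and 5.63 CPM with M-LPS-EV, against 6.71, 7.98 and 6.78 CPM with M-EV. All M-LPS-EV values were lower, with a log2 fold change of -0.29 (standard error 0.11, edgeR adjusted p = 0.059) from 383 counts with M-LPS-EV and 500 with M-EV. It was called with upper-quartile scaling (adjusted p = 0.047), with protein-coding transcripts only (0.049) and when M-LPS-EV replicate 2 was left out (0.048). Rab27b had 301 counts with M-LPS-EV and 365 with M-EV, and a log2 fold change of -0.17 (standard error 0.14).

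Rab11a and Rab35 act in recycling endosomes and are known to take part in release of other exosomes. Rab11a, the most abundant of the 4, had 47.6, 49.7 and 47.3 CPM with M-LPS-EV, against 52.2, 52.3 and 48.7 CPM with M-EV, which overlapped (log2 fold change -0.08, standard error 0.04). Rab35 had 41.8, 40.9 and 40.3 CPM with M-LPS-EV, against 38.3, 41.4 and 38.5 CPM with M-EV, also with overlap (0.06, standard error 0.04). Per length Rab11a stood far above Rab27a and Rab27b, at 141 ± 10.3 TPM with M-LPS-EV and 145 ± 3.34 TPM with M-EV. Its TPM level depends on how reads were divided between short and long transcripts. The coding Rab11a-208, of 2336 bases, held 14.4% of the TPM with M-LPS-EV and 14.8% with M-EV. In expected counts it held 51.7% with M-LPS-EV and 51.3% with M-EV.

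Which transcript carries each gene's value was read from the deposited transcript tables, as a share of the gene's TPM and with no test. For 13 of the 37 genes 1 transcript held over 90% of the TPM, and the median share of the leading transcript was 86.3%. The Cd9, Cd63, Cd81 and Chmp2b values each rested on 1 protein-coding transcript. Smpd3-201, of 5148 bases, held 87.5% ± 2.12 of Smpd3 with M-LPS-EV and 88.6% ± 1.59 with M-EV (SD, n = 3 each), and the shorter Smpd3-202 held the rest. Stam was the gene whose leading transcript is not annotated as protein-coding. Stam-209, annotated for nonsense-mediated decay, held 39.6% ± 3.55 with M-LPS-EV and 40.4% ± 2.86 with M-EV.

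Among the 58 transcripts that held 10% or more of a gene, 9 had shares that did not overlap between the groups. The same count over transcripts of all genes was not made, so this number has no background to be read against. Of the 9, 2 belong to Chmp3, and the others are Cd9-201, Mvb12a-201, Rab11a-203, Snf8-201, Vps37b-201, Vps4a-201 and Vps4b-205. Some of these differences were very small: Cd9-201 held 99.4% with M-LPS-EV and 99.6% with M-EV. Rab11a-203 held 18.7% with M-LPS-EV and 11.3% with M-EV. The long Chmp3 coding transcript Chmp3-201 held 63.1%, 67.0% and 66.0% with M-LPS-EV, against 53.4%, 58.4% and 59.4% with M-EV. The short Chmp3-202 held 17.4%, 13.6% and 16.7% with M-LPS-EV, against 24.1%, 22.7% and 20.4% with M-EV. In expected counts Chmp3-201 held 90.8% with M-LPS-EV and 86.6% with M-EV. The sign of the Chmp3 gene value turned with the unit, to -0.12 in TPM. For Vps4b, a retained-intron transcript of 709 bases, Vps4b-205, held 41.6% ± 3.49 of the TPM with M-LPS-EV and 48.4% ± 2.92 with M-EV. In expected counts its share was 8.38% with M-LPS-EV and 10.3% with M-EV. RSEM's uncertainty in dividing reads between such transcripts is not in these files.

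Promoter sequence was looked up for the called genes because several of them fell together while Cd81 rose. RefSeq (GRCm38.p6) promoters matched 26 of the 37 genes; Vps28, Vps37a, Vps37b, Snf8, Chmp1b, Chmp4c, Chmp6, Chmp7, Sdcbp, Rab27b and Smpd3 were the other 11. The windows run 5′ to 3′ along the gene from 250 to 51 bases before the start. Shown are both called tetraspanins, which moved in opposite directions, and the ESCRT genes Chmp2b and Tsg101, which fell; capitals mark the GC box GGGCGG, read on both strands.
Cd9, chr6:125494811-125495010, minus strand: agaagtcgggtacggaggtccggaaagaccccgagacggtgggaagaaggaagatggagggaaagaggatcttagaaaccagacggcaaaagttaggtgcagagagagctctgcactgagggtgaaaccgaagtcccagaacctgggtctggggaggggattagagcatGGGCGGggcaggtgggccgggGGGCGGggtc
Cd81, chr7:143052500-143052699, plus strand: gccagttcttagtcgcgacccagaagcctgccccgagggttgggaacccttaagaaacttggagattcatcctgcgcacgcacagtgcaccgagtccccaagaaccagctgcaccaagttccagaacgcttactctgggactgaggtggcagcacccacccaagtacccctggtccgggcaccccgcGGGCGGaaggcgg
Chmp2b, chr16:65562813-65563012, minus strand: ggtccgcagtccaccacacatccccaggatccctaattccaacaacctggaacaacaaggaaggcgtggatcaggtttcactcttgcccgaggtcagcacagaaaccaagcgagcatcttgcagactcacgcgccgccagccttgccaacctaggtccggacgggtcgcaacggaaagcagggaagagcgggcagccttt
Tsg101, chr7:46920020-46920219, minus strand: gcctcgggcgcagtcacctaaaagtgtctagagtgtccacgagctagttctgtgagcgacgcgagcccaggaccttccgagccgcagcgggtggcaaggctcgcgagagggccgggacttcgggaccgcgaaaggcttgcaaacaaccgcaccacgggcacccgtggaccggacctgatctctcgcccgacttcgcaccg

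The Cd9 window held 2 GC boxes and the Cd81 window 1, so both directions of change occurred with this motif. Chmp2b and Tsg101 held none of the 6 motifs searched. Besides GGGCGG these were CCAAT, the E-box CACGTG, the CRE TGACGTCA, the AP-1 site TGANTCA and the NF-kB consensus motif, each on both strands. Of the 29 windows of the matched genes, some with several starts, 11 (37.9%) held a GC box, against 24.6% of all 32851 promoter windows of this length. CCAAT was in 5 (17.2%), against 28.4% of all windows. The NF-kB consensus was in 2 (Chmp3 and Vps37c, 6.9%), against 5.71%, and the AP-1 site in 2 (Ist1 and Vps37c, 6.9%), against 5.57%. Rab27a held the E-box, which 4.34% of all windows had, and no window of a member held the CRE, found in 0.828% of all. These matches are letters in a window and do not show binding.

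Partners of these genes were described with 6 further lists. The lists were written with earlier results of these data known and were not matched for abundance. Their called shares beside that of all tested genes are therefore description only. Of 25 tested ESCRT adaptors, regulators and deubiquitinases 3 rose and 3 fell (24.0%, below the 31.6% of all tested genes), and the median log2 fold change was 0.007. Wwp1, a ubiquitin ligase that binds arrestin-domain vesicle adaptors, fell to 49.0 ± 2.82 CPM with M-LPS-EV, against 62.2 ± 1.66 CPM with M-EV (log2 fold change -0.34, standard error 0.04, edgeR adjusted p = 5.1e-07). Tom1l2, an endosomal sorting protein, fell by 0.19 (standard error 0.03) on the log2 scale and the ligase Itch by 0.16 (standard error 0.04). Rnf11, an adaptor of such ligases, rose by 0.19 (standard error 0.03).

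Of the 13 genes of the syndecan-syntenin route 6 rose and 2 fell (61.5%, against 31.6% of all tested genes), and the median was 0.119. Sdc4, a heparan sulfate proteoglycan of the cell surface whose tail binds syntenin, averaged 729 ± 11.7 CPM with M-LPS-EV and 322 ± 3.58 CPM with M-EV (log2 fold change 1.18, standard error 0.02, edgeR adjusted p = 2.8e-24). Sdc1 rose by 0.58 (standard error 0.04) and Sdc3 by 0.41 (standard error 0.02), and the kinase Src, which phosphorylates syndecan and syntenin, by 0.29 (standard error 0.05). Sdcbp was not called beside them, as given above. The 2 genes that fell were Sdc2, by 0.07 (standard error 0.02, edgeR adjusted p = 0.033), and Tspan6, by 0.14 (standard error 0.04). Tspan6 is also counted among the other tetraspanins below. Without M-EV replicate 3 the list had 5 called genes, all higher.

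Calcium-triggered repair acts beside ESCRT at wounded plasma membranes, through annexins, ferlins and lysosomal exocytosis. Of 25 tested genes 10 rose and 4 fell (56.0%, against 31.6% of all), with a median of 0.057. On the TPM scale 5 rose and 4 fell, and with upper-quartile scaling 8 rose and 6 fell. Cav1, the main protein of caveolae, averaged 79.6 ± 3.34 CPM with M-LPS-EV and 57.4 ± 1.23 CPM with M-EV (log2 fold change 0.47, standard error 0.04, edgeR adjusted p = 3.7e-10). The ferlin Myof rose by 0.40 (standard error 0.03) and the lysosomal protease Ctsb by 0.34 (standard error 0.02). Anxa11, an annexin that binds ALG-2, fell by 0.34 on the log2 scale (standard error 0.03). The other called annexins went both ways: Anxa1, Anxa2, Anxa4 and Anxa7 rose, and Anxa5 and Anxa6 fell.

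Of 18 tested tetraspanins besides the 3 above, 7 fell and 3 rose (55.6%, against 31.6% of all), and the median was -0.126. With effective length offsets and on the TPM scale 3 fell and 1 rose. Tspan18 had 4.29 ± 0.929 CPM with M-LPS-EV and 9.55 ± 0.418 CPM with M-EV (log2 fold change -1.16, standard error 0.12, edgeR adjusted p = 4.3e-08). Tspan13 fell by 1.17 (standard error 0.17) on the log2 scale and Tspan9 by 0.30 (standard error 0.05), while Cd151, a partner of laminin-binding integrins, rose by 0.19 (standard error 0.04). The Tspan9 call ended on the TPM scale and with the length offset.

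Among 40 tested genes of endosome transport, docking and fusion, 6 rose and 4 fell (25.0%, below the 31.6% of all tested genes), with a median of 0.011. The exocyst subunit Exoc4 rose by 0.25 on the log2 scale (standard error 0.04) and Rab11b, the paralog of Rab11a, by 0.19 (standard error 0.04). Snap23, a SNARE of the plasma membrane, fell by 0.23 on the log2 scale (standard error 0.04). Of 24 tested genes of sphingomyelin and ceramide metabolism 6 rose and 1 fell (29.2%, near the 31.6% of all), with a median of 0.044. Sphk1, which makes sphingosine 1-phosphate, averaged 3.51 ± 0.536 CPM with M-LPS-EV and 1.11 ± 0.224 CPM with M-EV (log2 fold change 1.64, standard error 0.21, edgeR adjusted p = 7.1e-07). The ceramide synthase Cers6 rose by 0.36 (standard error 0.05), Smpdl3b, a sphingomyelinase-like surface protein, by 0.34 (standard error 0.06) and the ceramidase Acer3 by 0.24 (standard error 0.04). Smpd3, which is not in that list, fell.

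**Figure D4:**
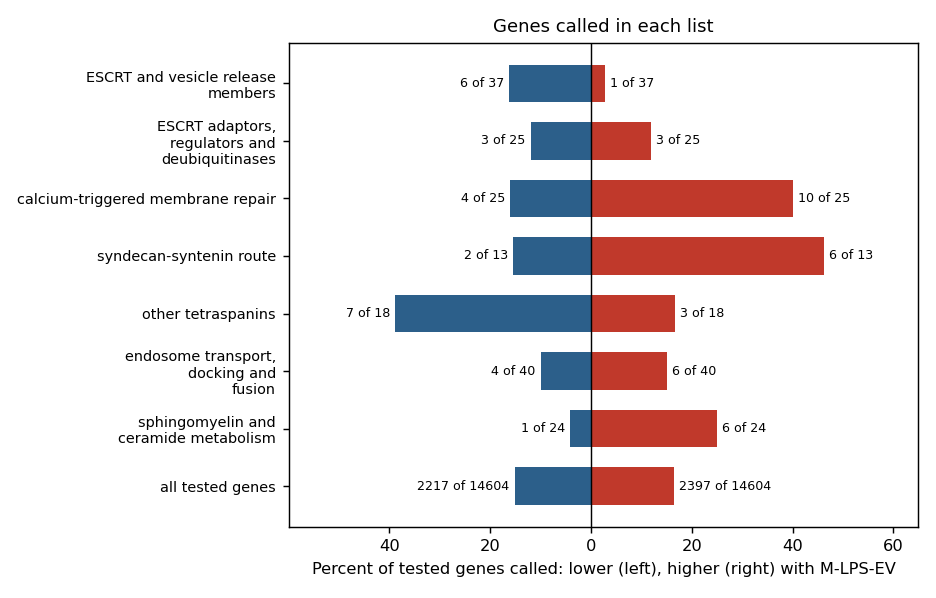
Percent of tested genes called lower (left) and higher (right) with M-LPS-EV in each list, with counts at the bar ends; the bottom bar shows all tested genes. The 37 ESCRT and vesicle release genes have 6 lower and 1 higher, and the syndecan-syntenin and calcium-triggered repair lists have most of their calls on the higher side.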

How the data were processed

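RNA of 6 chondrocyte libraries was analysed, grouped by their titles. The build mm10 and the tools STAR, RSEM and DESeq2 are named in the submitters' processing notes. Their versions, the annotation and the strand setting were not given in the sources used. The authors deposited expected counts, TPM, FPKM (not used) and the percent of gene abundance (IsoPct) per transcript, per the file headers, with length columns. The shares of a gene's TPM in percent were recomputed from the deposited TPM. Symbols and coordinates (1-based) came from GENCODE M21, which held 99.07% of the transcripts.

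Expected counts were summed per gene, rounded, filtered with filterByExpr (minimum count 10, minimum total 15), scaled by TMM and fitted with group as the only term (edgeR 4.0.16, limma 3.58.1, DESeq2 1.42.0, R 4.3.3, matplotlib 3.10.9). CPM use TMM-scaled library sizes. Intervals are the log2 fold change ± the t quantile times its SE. On simulated counts of this comparison (14402 genes tested) 30 of 50 genes with a log2 change of 0.25 were recovered. The recovery was 46 of 50 at 0.5 and 50 of 50 at both 1 and 2, and 12 of 14202 unchanged genes were called. Far fewer genes were changed in the simulation than were called in the data, so recovery in the real comparison may differ.

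The members and lists were chosen with earlier results of these data known. Named genes are all called members, all others by role, and the 4 called genes with the smallest p of each further list, of which 1 is not reported here. Vamp7 was not matched to a symbol, and Cert1 was matched as Col4a3bp. Libraries of 1 group differed by more than sampling noise (chi-square per degree of freedom 1.66 to 2.77). Alternatives covered scaling, filters, length offsets, the replicate block, left-out libraries, other tools, TPM and a 1.2-fold threshold. Summing only protein-coding transcripts was added after seeing the data.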

Additional observations from a re-analysis of the deposited data

How the results depend on the processing

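None of the 7 called members changed sign under the 18 alternatives. Smpd3 stayed called in all of them, and Cd9, Cd81 and Chmp2b lost their call only against a 1.2-fold threshold. That threshold left 1 member, 11 genes of the further lists and 1137 of all genes called; by list these were 0 ESCRT adaptors, 4 of calcium-triggered repair, 3 of the syndecan-syntenin route, 3 other tetraspanins, 0 of docking and 1 of sphingolipid metabolism. On both TPM scales 9 calcium repair genes were called, against 14. There and with length offsets 4 other tetraspanins were called, against 10. With 1 library left out the syndecan-syntenin route had 5 to 8. Over all genes, effective length offsets called 2868, limma-trend on log2(TPM + 1) called 2622 and on log2(TPM + 0.1) called 2619, against 4614; the members' counts there were 5, 6 and 6, against 7. DESeq2 called 3465 genes. The replicate block left 7 members and 4519 genes called. Same-numbered libraries of the groups did not deviate together (correlations -0.025, -0.038 and -0.012) and did not match best by number. This gave no sign of pairing, but with 3 libraries per group it cannot exclude a shared mouse or culture. The median leading transcript share was 88.9% in expected counts, against 86.3%, and 84.9% to 86.3% with 1 library left out.

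Values of 15 uncalled members changed sign, none by more than 0.12 from 0, and the cause was not tested. With effective length offsets, log2(TPM + 1) and log2(TPM + 0.1), Stam2 had 0.10, 0.080 and 0.083, Mvb12b 0.064, 0.038 and 0.041, Chmp3 -0.10, -0.12 and -0.12, Vps4b -0.067, -0.084 and -0.085, and Chmp4b -0.0078, -0.022 and -0.022. On the TPM scales Chmp1b had -0.0033 and -0.0034 and Chmp2a -0.011 and -0.011. With upper-quartile scaling Snf8 had -0.0094, Chmp1b -0.0047, Chmp2a -0.014 and Chmp4b -0.011. With RLE scaling Chmp2a had -0.0023 and Chmp4b -0.00021. Without a filter Snf8 had -0.0013, Chmp2a -0.0057 and Chmp4b -0.0035. With DESeq2 Chmp2a had -0.0028 and Chmp4b -0.00017. With the replicate block Chmp2a had -0.0017. With protein-coding transcripts only Vps37a had 0.041 and Snf8 -0.0030.

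With 1 library left out, values ran from -0.0049 to 0.081 for Vps28, -0.10 to 0.016 for Vps37b, -0.088 to 0.024 for Mvb12b, -0.0015 to 0.11 for Vps36, -0.045 to 0.046 for Snf8, -0.018 to 0.058 for Chmp1a and -0.047 to 0.055 for Chmp1b. They ran from -0.030 to 0.026 for Chmp2a, -0.018 to 0.014 for Chmp4b, -0.053 to 0.060 for Chmp5, -0.028 to 0.021 for Ist1 and -0.013 to 0.038 for Vps4b.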
